A study of Mus musculus with 40 samples.

Results

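The response of the whole mouse colon to a gut protozoan was compared between 2 days after inoculation. The quantity examined was the difference between inoculated and uninoculated mice at day 14 minus the same difference at day 3, computed for each gene. The comparison was chosen by its sample labels and no gene was selected beforehand. It rests on 12 of the 40 libraries of the series, 3 in each of 4 groups, and takes in all 45792 mouse genes of the count table, of which 11696 had enough counts to be tested. The mice had each received 2000000 sorted Tritrichomonas musculis (T.mu), a flagellate that lives in the mouse large intestine, or no inoculum. RNA came from total colonic tissue and was read by 3′ digital gene expression, which counts the ends of transcripts.

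The 4 groups were control and T.mu tissue at day 3, and control and T.mu tissue at day 14. Within each group the 3 libraries carry the litter numbers 1, 2 and 3, and values are given below in that order. The design gives 3 mice for each collection, so a change between days is a change between animals. Strain, age, sex and the hour of collection are not given in the sources used here. The libraries of the 2 days carry different values of the second index in their library names, while both arms of a day share one, so day and index cannot be told apart within an arm. Genes of epithelium (Epcam, Krt8, Car1) and smooth muscle (Acta2, Myh11) were present in all 12 libraries. The general leukocyte gene Ptprc was low (8.39 to 34.8 CPM).

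Total tissue holds the epithelium with the connective tissue, muscle, vessels and immune cells beneath it. Interferons of type I and type III switch on antiviral genes through interferon-stimulated response elements in their promoters, while interferon-gamma acts on gamma-activated sites and raises guanylate-binding proteins, immunity-related GTPases, Irf1 and the machinery of antigen presentation. In the gut, cytokines such as interleukin-17 and interleukin-22 act on epithelial cells and raise antimicrobial and acute phase genes, in part through NF-kappaB.

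Depth was uneven. Total mouse counts were 3252453 to 4363859 in the day 3 controls, 1307604 to 3585722 with T.mu at day 3, and 466381 to 3472490 with T.mu at day 14. The day 14 controls had 351445, 220717 and 1705280 counts. Every response at day 14, every difference between the responses of the 2 days and every change between days in controls therefore leans on the 2 shallowest libraries of the comparison. Mitochondrial transcripts took 12.5% to 12.9%, 9.34% to 11.1%, 13.8% to 15.8% and 8.74% to 11.9% of the counts in control day 3, T.mu day 3, control day 14 and T.mu day 14. Levels are counts per 1000000 mouse counts (CPM) after TMM scaling. The 3′ counts are not divided by gene length, so levels are compared between samples and not between genes.

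Interferon-stimulated genes were higher with T.mu on both days, while genes such as Plac8, Car4, Irf1 and Saa3 passed the test at day 14 alone. A smaller group, with the butyrate transporter Slc16a1, was lower at day 14. No gene passed an adjusted p of 0.05 for a difference between the responses of day 14 and day 3. edgeR's quasi-likelihood test called 0 of 11696 genes (0%), with a lowest adjusted p of 0.242. An unadjusted p under 0.05 was found for 736 genes. The log2 response was higher at day 14 than at day 3 for 421 of them and lower for 315. The lower ones include genes whose response fell below 0 at day 14. DESeq2 called 5 genes, all lower (Dtx1, St3gal5, Plekha1, Cyp4f15 and C3), and limma voom called 0. Leaving out control replicate 3 of day 14 gave 16 calls, T.mu replicate 2 of day 3 gave 6 and T.mu replicate 1 of day 14 gave 1, and leaving out any other library gave 0. The median difference over all genes was 0.08 on the log2 scale, and -0.03 with RLE scaling. On each day by itself the response passed for 55 genes at day 3 (0.47% of those tested, 54 higher and 1 lower with T.mu) and for 113 genes at day 14 (0.966%, 96 higher and 17 lower). The split at day 14 was 87 of 124 higher with RLE scaling and 118 of 185 with DESeq2. Whether the counts of 55 and 113 differ was not tested. The day 14 count was 56, 74 and 196 without control replicates 1, 2 and 3 of that day and 66 without T.mu replicate 2. A further fit left out every tissue library under 400000 counts. These were control replicates 1 and 2 of day 14 and T.mu replicates 1 and 4 of day 48. The day 14 count was lower still in that fit, which leaves a lone day 14 control that is assumed to vary like the other libraries.

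The genes past the threshold fell into 5 sets. The set of 43 genes higher with T.mu on both days made up 79.6% of those higher at day 3 and 44.8% of those higher at day 14. A further 53 genes were higher and past the threshold at day 14 alone, with a median log2 response of 0.21 at day 3 and 1.12 at day 14. Another 11 were past it at day 3 alone, with medians of 1.68 and 1.19. The day 14 set numbered 20, 27 and 135 without control replicates 1, 2 and 3 of day 14 and 22 without T.mu replicate 2 of day 14. It numbered 17 with limma voom and fewer still without the libraries under 400000 counts. The day 3 set numbered 23, 18 and 20 without those same controls, 17 without T.mu replicate 1 of day 14 and 6 without control replicate 2 of day 3. The remaining sets were 17 genes lower at day 14 and 1 gene lower at day 3 (0.00855%). Membership follows from the responses of the same days, so the sign of the day difference inside a set only describes it. Interferon genes made up most of the first set, 39 of 43 on the lists of type I and interferon-gamma responses, against 8 of the 53 genes of day 14 alone and 2 of the 11 of day 3 alone. Those lists held 86 of the 11696 genes tested (0.735%). A gene off those lists may still be induced by interferon, so these counts do not measure the interferon share of a set. Of the 27 genes tested on the MHC class I list, 1 was called at day 3 alone and 5 at day 14 alone. Over all 11696 genes these numbers were 12 and 70. In the day 14 set interferon genes were 17 of 65 without control replicate 2 of day 3, 14 of 60 without control replicate 1, 16 of 63 without T.mu replicate 2 of day 3 and 8 of 135 without control replicate 3 of day 14.

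**Figure D1:**
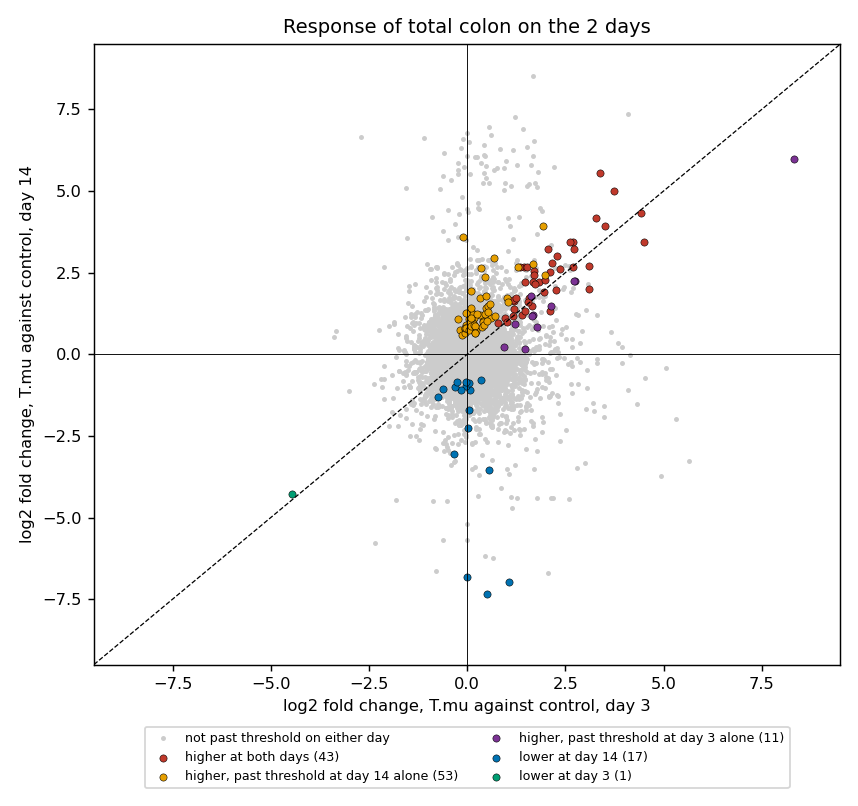
Response to T.mu at day 3 (horizontal axis) and day 14 (vertical axis), each as a log2 fold change against the controls of that day, for the 11696 genes tested. Coloured points mark the 43 genes higher on both days, the 53 past the threshold at day 14 alone, the 11 past it at day 3 alone, and the genes lower at day 14 (17) or day 3 (1); the dashed line marks equal responses, and points far from 0 on 1 axis include genes with a group at 0 counts, whose fitted values are no bounds.

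The promoters of these sets were searched for 3 motifs. RefSeq promoters (GRCm38.p6, 250 bases before to 50 after the start) were matched for 33 of the 43 genes higher on both days, 45 of the 53 of day 14 alone, 9 of the 11 of day 3 alone and 13 of the 17 lower at day 14. The interferon-stimulated response element, searched on both strands as GAAA, 2 bases of any kind and GAAA, was found in 20 of 39 promoters (51.3%) of the genes higher on both days, in 5 of 64 (7.81%) for day 14 alone and in 4 of 12 (33.3%) for day 3 alone. Among all 32851 promoters 3.44% held it, and of the 19 promoters of genes lower at day 14 none did. The gamma-activated site, TTC and GAA with 3 bases between, was found in 12.8% and 14.1% of promoters of the first and second set against 8.3% of all promoters. The kappaB motif, GGGA and TTCC with 2 bases between, was found in 5.13% and 1.56% against 1.47% of all. The motifs were searched separately and may overlap. A match describes letters in a window and shows no binding. The 100 bases before the start are printed for 5 genes whose responses are described next, because Isg15, Oas1a and Igtp show the motif found in many promoters of the genes higher on both days. Irf1 and Nfkbia, past the threshold at day 14 alone, stand beside them for comparison; Nfkbia holds the 1 kappaB match among the 64 promoters of that set. They lie at chr4:156200819-156200918, minus strand for Isg15, chr5:120907526-120907625, minus strand for Oas1a, chr11:58199456-58199555, plus strand for Igtp, chr11:53769914-53770013, plus strand for Irf1 and chr12:55492648-55492747, minus strand for Nfkbia. Each is written 5′ to 3′ along the gene, and capitals mark the matches.
Isg15: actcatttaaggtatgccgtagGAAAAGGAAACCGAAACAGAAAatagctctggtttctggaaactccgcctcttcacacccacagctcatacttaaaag
Oas1a: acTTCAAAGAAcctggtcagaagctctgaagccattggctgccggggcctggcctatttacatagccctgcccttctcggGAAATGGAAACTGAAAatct
Igtp: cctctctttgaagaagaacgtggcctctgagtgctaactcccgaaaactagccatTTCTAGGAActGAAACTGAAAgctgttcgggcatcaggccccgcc
Irf1: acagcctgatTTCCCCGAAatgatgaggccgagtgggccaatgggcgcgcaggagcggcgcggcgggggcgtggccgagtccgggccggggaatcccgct
Nfkbia: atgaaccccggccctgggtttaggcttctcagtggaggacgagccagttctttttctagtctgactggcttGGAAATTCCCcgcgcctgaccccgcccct
In Isg15 the capitals are 3 overlapping response element matches that begin 78, 72 and 66 bases before the start. In Oas1a a gamma-activated site match begins 98 bases before the start and 2 overlapping response element matches begin 20 and 14 bases before it. In Igtp a gamma-activated site match lies 45 bases and a response element match 34 bases before the start. Irf1 has a gamma-activated site match 90 bases before the start and Nfkbia a kappaB match, on the opposite strand, 29 bases before it. Irf1 has another RefSeq promoter, at chr11:53770223-53770522, in which none of the 3 motifs was found.

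Among the type I interferon genes, 64 of the 70 listed were tested, and 35 rose at day 3 and 40 at day 14, where 0.462% and 0.821% of all genes rose. The median log2 response of the list was 1.63 at day 3 and 1.98 at day 14, against -0.01 and 0.06 over all genes, and the median day difference was 0.31 with no member past the threshold. The summed level of the list was 2905 to 3147 CPM in the day 3 controls and 6864 to 10214 with T.mu, then 2274 to 3144 and 7655 to 9350 CPM at day 14, so the arms did not overlap on either day. Both T.mu groups covered much the same range.

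Irf7, the transcription factor that amplifies the type I interferon response, stood at 519, 517 and 398 CPM in the day 3 controls and 846, 1123 and 934 CPM with T.mu. At day 14 Irf7 was at 582, 336 and 577 CPM in controls and 1130.2, 1072 and 817 CPM with T.mu. Both T.mu groups lay above both control groups, and the response was 2.03-fold at day 3 (log2 1.02 ± 0.18, adjusted p = 0.000168) and 2.00-fold at day 14 (log2 1.00 ± 0.18, adjusted p = 0.00036). The day difference was -0.02 ± 0.25 with a 95% interval of -0.51 to 0.48. Lgals9, a galectin that binds receptors on T cells, was at 131, 163 and 177 CPM in the day 3 controls and 316, 399 and 354 CPM with T.mu. At day 14 Lgals9 was at 182, 117 and 179 CPM in controls and 507, 504 and 491 CPM with T.mu. Its 6 T.mu libraries were above all 6 controls, and it rose 2.27-fold at day 3 (adjusted p = 3.51e-05) and 3.07-fold at day 14 (adjusted p = 1.84e-07), with a day difference of 0.43 ± 0.27. Ifi27l2b, a small interferon-induced gene, was at 79.6, 84.9 and 109 CPM in the day 3 controls and 276, 419.8 and 279.9 CPM with T.mu. At day 14 Ifi27l2b was at 69.5, 33.6 and 75.6 CPM in controls and 394, 284 and 201 CPM with T.mu. It rose 3.58-fold and 4.62-fold on the 2 days, again without overlap. These 3 genes kept their calls on both days whichever library was left out. Without the libraries under 400000 counts the response of Irf7 at day 14 no longer passed.

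Oas1a, an oligoadenylate synthetase that senses double-stranded RNA, had one of the larger day differences among genes higher on both days. It was at 45.0, 48.7 and 47.0 CPM in the day 3 controls and 119, 154 and 109 CPM with T.mu. At day 14 Oas1a was at 11.6, 25.2 and 25.2 CPM in controls and 149, 153 and 112 CPM with T.mu. The T.mu libraries covered the same range on both days, while the day 14 controls lay below the day 3 controls. The response was 2.72-fold at day 3 (log2 1.44 ± 0.24, adjusted p = 6.66e-05) and 6.34-fold at day 14 (log2 2.67 ± 0.30, adjusted p = 2.91e-08). Its day difference of 1.22 ± 0.38 did not pass (adjusted p = 0.588), nor did its change between days in controls (log2 -1.09 ± 0.30, adjusted p = 0.0885). Stat2, a component of the complex that binds the response element, showed the same pattern, at 26.4, 18.3 and 28.6 CPM in the day 3 controls and 65.3, 68.6 and 50.7 CPM with T.mu. At day 14 Stat2 was at 5.79, 8.39 and 14.2 CPM in controls and 69.2, 88.9 and 62.5 CPM with T.mu. The day 14 controls were again the lowest group, and the day difference was 1.33 ± 0.48 (adjusted p = 0.650). The call of Stat2 at day 3 was lost without control replicate 2 or T.mu replicate 2 of that day (adjusted p up to 0.115).

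Several interferon genes had no counts in the 2 shallow day 14 controls and were present in the deeper one. At such depth a level of a few CPM gives few or no counts, and the part of depth in these zeros was not tested. Isg15, a ubiquitin-like modifier, was at 9.14, 7.53 and 13.8 CPM in the day 3 controls and 81.8, 166 and 99.1 CPM with T.mu. At day 14 Isg15 was at 0, 0 and 13.2 CPM in controls and 156, 135 and 107 CPM with T.mu. No T.mu library overlapped a control on either day, and the responses were 11.3-fold (log2 3.503 ± 0.59, adjusted p = 0.00783) and 15.2-fold (log2 3.92 ± 0.76, adjusted p = 0.0199). Both calls ended when litter was added as a block (adjusted p = 0.0531 and 0.0702), and leaving out control replicate 1 or 2 of day 3, or control or T.mu replicate 1 or 2 of day 14, ended the call of that day (adjusted p up to 0.0904 and 0.0907). Usp18, which removes Isg15 from proteins and dampens interferon signalling, was at 7.18, 3.76 and 5.01 CPM in the day 3 controls and 26.8, 81.6 and 42.8 CPM with T.mu. At day 14 Usp18 was at 0, 0 and 4.93 CPM in controls and 87.8, 49.2 and 46.9 CPM with T.mu. The deepest day 14 control lay within the range of the day 3 controls for both Isg15 and Usp18. Usp18 rose 9.67-fold at day 3 and, with 2 of 3 controls at 0, had a log2 response of 4.16 ± 0.61 at day 14 (adjusted p = 3.78e-05). Trim30a, an interferon-induced tripartite motif protein, was at 3.26, 3.76 and 5.01 CPM in the day 3 controls and 28.6, 66.0 and 31.7 CPM with T.mu. At day 14 Trim30a was at 0, 0 and 1.10 CPM in controls and 58.2, 35.6 and 17.9 CPM with T.mu. It had the largest day difference of the set in size, 2.16 ± 1.07, with an interval of 0.01 to 4.30 and an adjusted p of 0.793; its direction turned, to -1.02, when all libraries were thinned to the lowest depth, where its day 14 response no longer passed. Without control replicate 3 of day 14, the deepest of that group, the remaining controls of Isg15, Usp18 and Trim30a are at 0 and their fitted day 14 responses (11.27, 10.19 and 9.54 on the log2 scale) are no measure of size; Usp18 and Trim30a kept their calls in every fit that left out 1 library.

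Some genes of the set leaned towards day 3. Herc6, the main ligase that attaches Isg15 in mice, was at 6.85, 5.38 and 3.82 CPM in the day 3 controls and 29.96, 70.4 and 33.3 CPM with T.mu. At day 14 Herc6 was at 8.69, 8.39 and 7.67 CPM in controls and 41.4, 32.4 and 13.4 CPM with T.mu. Its response was 8.53-fold at day 3 (adjusted p = 8.04e-07) and 3.97-fold at day 14 (adjusted p = 0.0383), and the day difference of -1.10 ± 0.67 did not pass (adjusted p = 0.841). The day 14 call was lost with the litter block (adjusted p = 0.106) and without any of the 3 controls, T.mu replicate 1 or T.mu replicate 2 of day 14 (up to 0.216). Ifi27l2a, a paralogue of Ifi27l2b between which reads may be split and which was chosen after its values were seen, was at 74.1, 73.1 and 58.4 CPM in the day 3 controls and 250.4, 217 and 417 CPM with T.mu. At day 14 Ifi27l2a was at 139, 67.1 and 48.2 CPM in controls and 195, 246 and 147 CPM with T.mu. Its day difference was -0.77 ± 0.44 and its day 14 call the weakest of the set (adjusted p = 0.0499), lost with the litter block (0.0839) and in 8 of the 12 fits that left out 1 library (up to 0.267). Of the 43 genes, 12 had a day difference below 0, and the largest in size was 2.16.

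**Figure D2:**
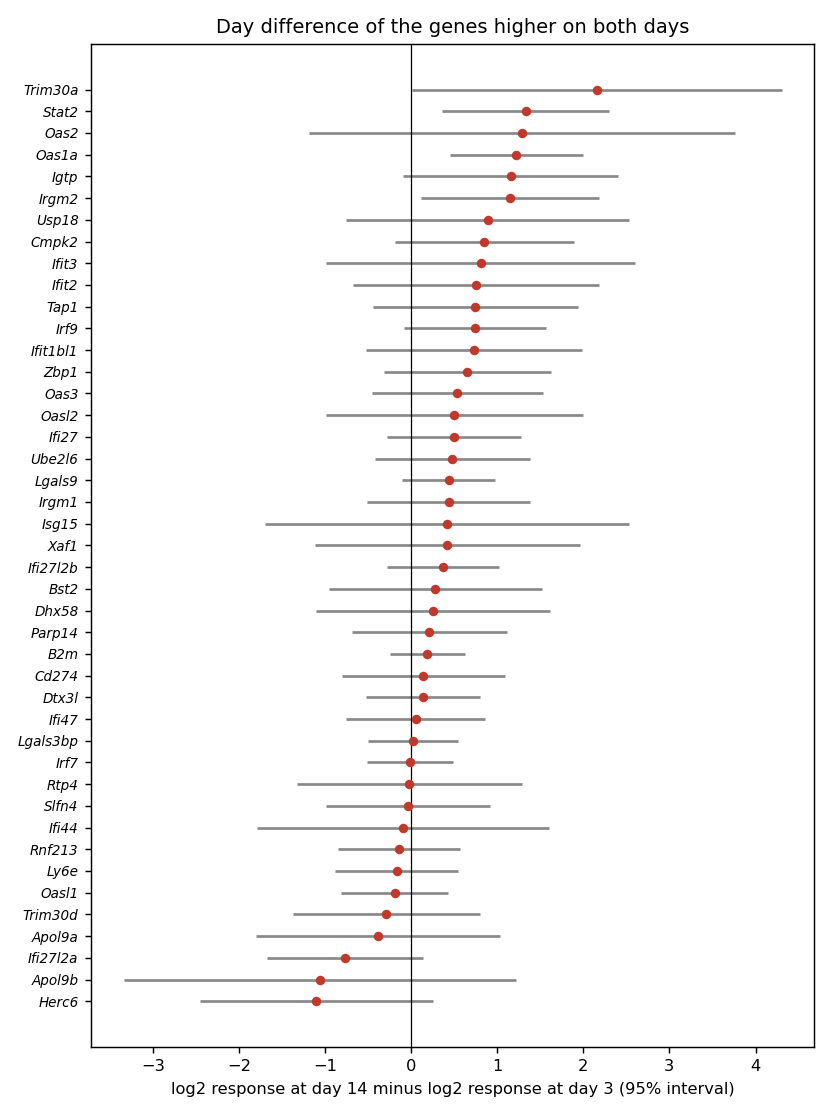
Day difference (log2 response at day 14 minus log2 response at day 3, horizontal axis) of the 43 genes higher with T.mu on both days, with 95% intervals, ordered by size. Irf7 sits at -0.02, Oas1a at 1.22 and Herc6 at -1.10, and no gene passed the threshold after adjustment over all genes tested.

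Of the interferon-gamma list, 22 of 36 genes were tested; 6 rose at day 3 and 7 at day 14 (0.462% and 0.821% of all genes did), and the median response was 1.19 and 2.01. The median day difference was 0.96, with 20 of 22 members above 0, where 6441 of 11696 genes were above 0. The summed level was 464 to 532 CPM in the day 3 controls, 662 to 966 with T.mu at day 3, 388 to 500.4 in the day 14 controls and 1134 to 1502 with T.mu at day 14, with no overlap of any T.mu group with another group. Igtp, an immunity-related GTPase that acts on vacuoles holding intracellular microbes, was at 6.85, 5.11 and 10.02 CPM in the day 3 controls and 18.3, 37.2 and 38.1 CPM with T.mu. At day 14 Igtp was at 11.6, 16.8 and 5.48 CPM in controls and 89.0, 57.5 and 89.3 CPM with T.mu. It rose 4.18-fold at day 3 (log2 2.07 ± 0.36, adjusted p = 0.000249) and 9.32-fold at day 14 (log2 3.22 ± 0.48, adjusted p = 1.26e-05), and kept both calls whichever library was left out. The day difference of Igtp was 1.15 ± 0.62 (adjusted p = 0.805). It ranged from 0.43 without control replicate 3 of day 14 to 1.77 without the libraries under 400000 counts. Within the T.mu arm Igtp rose from day 3 to day 14 (log2 1.32 ± 0.34, adjusted p = 0.0229), a call lost without T.mu replicate 1 or 3 of either day (up to 0.262).

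Irf1, the transcription factor that carries much of the interferon-gamma response, was at 224, 162 and 162 CPM in the day 3 controls and 182, 207 and 180.0 CPM with T.mu. At day 14 Irf1 was at 145, 168 and 129.9 CPM in controls and 217, 298 and 408 CPM with T.mu. The groups overlapped at day 3 (0.06 ± 0.20, adjusted p = 0.999) and were apart at day 14, where Irf1 rose 2.095-fold (log2 1.07 ± 0.22, adjusted p = 0.00292); the call was lost without T.mu replicate 3 (adjusted p = 0.0654). Its day difference was 1.01 ± 0.30 with an interval of 0.41 to 1.61 (adjusted p = 0.508). Iigp1, another immunity-related GTPase, was at 2.61, 3.76 and 1.43 CPM in the day 3 controls and 4.47, 7.28 and 20.6 CPM with T.mu. At day 14 Iigp1 was at 5.79, 0 and 1.10 CPM in controls and 27.1, 24.1 and 33.5 CPM with T.mu. It passed at day 14 (adjusted p = 0.00292) and not at day 3 (0.165), the call ending without control replicate 3 of day 14 (0.113), and its day difference of 1.98 ± 1.06 did not pass (0.805). Gbp2, a guanylate-binding protein, passed on neither day (log2 0.96 ± 0.43 and 1.74 ± 0.54). Gbp3 passed at day 3 alone. Ifng and Cxcl10, the cytokine and a chemokine of this pathway, had too few counts to be tested.

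For antigen presentation by MHC class I, all 27 listed genes were tested; 3 rose at day 3 and 7 at day 14 (0.462% and 0.821% of all genes did), with medians of 0.41 and 0.82 and a median day difference of 0.42. B2m, the light chain of MHC class I, was chosen after its values were seen and was at 1227, 1200.2 and 1095 CPM in the day 3 controls and 1971, 2088 and 1993 CPM with T.mu. At day 14 B2m was at 1150.0, 1045 and 1380.0 CPM in controls and 2184, 2547 and 2276 CPM with T.mu. It rose 1.72-fold and 1.95-fold, and both calls held whichever library was left out. Tap1, a subunit of the peptide transporter, was at 14.7, 7.53 and 27.2 CPM in the day 3 controls and 45.6, 59.8 and 56.3 CPM with T.mu. At day 14 Tap1 was at 11.6, 16.8 and 24.1 CPM in controls and 106, 117 and 103 CPM with T.mu. It rose 3.24-fold at day 3 (log2 1.70 ± 0.37, adjusted p = 0.0176) and 5.43-fold at day 14 (log2 2.44 ± 0.45, adjusted p = 0.00234), and its day 3 call ended on leaving out any of 5 libraries (control replicates 1 and 2 and T.mu replicates 2 and 3 of day 3, and control replicate 2 of day 14; adjusted p up to 0.175). H2-D1, a class I heavy chain, was at 1105, 1180.3 and 1150.1 CPM in the day 3 controls and 1487, 1669.7 and 1395 CPM with T.mu. At day 14 H2-D1 was at 895, 848 and 1221 CPM in controls and 1997, 2298 and 1765 CPM with T.mu. It passed at day 14 (log2 1.03 ± 0.16, adjusted p = 2.14e-05) and not at day 3 (log2 0.41 ± 0.15, adjusted p = 0.611), although the arms did not overlap on either day, and the day difference of 0.62 ± 0.22 did not pass (adjusted p = 0.649). H2-T23 and the immunoproteasome subunit Psmb9, the latter chosen after its values were seen, also rose at day 14 alone (2.15-fold and 3.31-fold). H2-D1 and H2-T23 have close paralogues among which reads may be split. The day 14 calls of these 5 genes held when any 1 library was left out and ended without the libraries under 400000 counts.

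The MHC class II list had 8 tested genes of 13, none past the threshold on either day. Its median response was 0.25 and 0.76, and its summed level at day 14 was 671 to 742 CPM in controls and 852 to 1253 with T.mu. H2-Ab1, a class II chain, was at 69.8, 73.1 and 49.6 CPM in the day 3 controls and 59.0, 71.7 and 103 CPM with T.mu. At day 14 H2-Ab1 was at 40.6, 42.0 and 114 CPM in controls and 337, 145 and 183 CPM with T.mu. The groups overlapped at day 3; at day 14 all T.mu libraries were above the controls, led by replicate 1, without passing the test (day 14 log2 1.57 ± 1.00, adjusted p = 0.713). Cd74, the invariant chain, did not pass either (day 14 log2 1.40 ± 1.04, adjusted p = 0.773).

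Among the genes past the threshold at day 14 alone were genes of the surface epithelium. Of the surface colonocyte list 38 of 39 genes were tested; none passed at day 3, and 5 were higher and 1 lower at day 14, where 0.821% and 0.145% of all genes were. The summed level of the list was 91994 to 97908 CPM in the day 3 controls, 92773 to 111041 with T.mu at day 3, 75281 to 87158 in the day 14 controls and 102275 to 125869 with T.mu at day 14. The arms were apart at day 14, and the part of this sum in the values of its members was not tested. Plac8, a small cysteine-rich protein gene of the colonic epithelium, was at 1820.1, 1667 and 1549 CPM in the day 3 controls and 2111, 2214 and 1970.3 CPM with T.mu. At day 14 Plac8 was at 1639.5, 1498 and 1410.2 CPM in controls and 2256, 4527 and 3642 CPM with T.mu. All 3 T.mu libraries of day 14 were above all controls, and Plac8 rose 2.29-fold (log2 1.20 ± 0.17, adjusted p = 3.7e-06). That call held whichever library was left out and without the libraries under 400000 counts. At day 3 the arms were also apart, by less (log2 0.32 ± 0.16, adjusted p = 0.979). Its day difference was 0.88 ± 0.23, interval 0.41 to 1.34, and did not pass (adjusted p = 0.359; lowest over all alternatives 0.0439, without T.mu replicate 1 of day 14).

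Car4, a membrane-bound carbonic anhydrase of absorptive colonocytes, was at 1260.2, 1349 and 1669.8 CPM in the day 3 controls and 1277, 1233 and 1246 CPM with T.mu. At day 14 Car4 was at 1078, 1372 and 1458 CPM in controls and 1987, 2719.7 and 1892 CPM with T.mu. It rose 1.69-fold at day 14 (log2 0.76 ± 0.16, adjusted p = 0.00321) with groups that overlapped at day 3 (log2 -0.19 ± 0.16, adjusted p = 0.999). The day difference of 0.94 ± 0.22 had the smallest p of all genes above 0 (adjusted p = 0.252), and passed without control replicate 3 of day 14 (0.0417). Tm4sf20, a tetraspan membrane protein gene, was at 269, 229.6 and 317 CPM in the day 3 controls and 215, 289 and 182 CPM with T.mu. At day 14 Tm4sf20 was at 249.1, 269 and 370.5 CPM in controls and 496, 779 and 638 CPM with T.mu. It rose 2.12-fold at day 14 (log2 1.08 ± 0.23, adjusted p = 0.00585), and its day difference of 1.32 ± 0.31 passed in the fits with no filter on low counts (adjusted p = 0.00953), without control replicate 3 of day 14 (0.0417) and without T.mu replicate 2 of day 3 (0.0329), but not in the others. The day 14 call of Car4 was lost without control replicate 1 or T.mu replicate 2 (up to 0.132), that of Tm4sf20 also without control replicate 2 (up to 0.0749). Slc39a4, the zinc importer of enterocytes, was at 412, 459 and 481 CPM in the day 3 controls and 511, 573 and 436 CPM with T.mu. At day 14 Slc39a4 was at 261, 214 and 363 CPM in controls and 541, 703 and 618 CPM with T.mu. It rose 2.17-fold (log2 1.12 ± 0.19, adjusted p = 0.000178) and held whichever library was left out. Its day difference of 0.95 ± 0.26 passed without control replicate 3 of day 14 (0.0417) and not otherwise. The day 14 controls were the lowest group and the T.mu libraries of day 14 the highest. Lypd8, a secreted protein that keeps flagellated bacteria away from the colonic epithelium, was chosen after its values were seen and was at 15053, 14107 and 14463 CPM in the day 3 controls and 18707, 19669 and 18021 CPM with T.mu. At day 14 Lypd8 was at 13174, 11954 and 14914 CPM in controls and 19434, 27791 and 24048 CPM with T.mu. It rose 1.78-fold at day 14 (log2 0.83 ± 0.13, adjusted p = 5.79e-05), while at day 3 the arms were apart without a call (log2 0.37 ± 0.13, adjusted p = 0.522). Without the libraries under 400000 counts the day 14 calls of Car4, Tm4sf20, Slc39a4 and Lypd8 were lost.

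The epithelial antimicrobial and interleukin-17/interleukin-22 list had 23 of 34 genes tested. None passed at day 3 (median -0.07) and 4 rose at day 14, where 0.821% of all genes rose (Lypd8, Saa3, Sprr1a and Tnip3; median 0.90). The call of Sprr1a ended with the litter block (0.0613) and in 6 of the 12 fits that left out 1 library (up to 0.380). The median day difference of 1.24 was the highest of the lists with at least 6 members tested. Of the 23 members 20 were above 0, where 6441 of 11696 genes were, and none was past the threshold. The summed level was 26069 to 27657 CPM in the day 3 controls, 29892 to 31284 with T.mu at day 3, 22374 to 30077 in the day 14 controls and 29519.0 to 63189 with T.mu at day 14, so that at day 14 the groups overlapped. Saa3, an acute phase protein, was at 12.7, 11.8 and 13.6 CPM in the day 3 controls and 17.4, 22.6 and 21.4 CPM with T.mu. At day 14 Saa3 was at 8.69, 8.39 and 4.93 CPM in controls and 15.3, 80.6 and 49.1 CPM with T.mu. It was 7.64-fold higher at day 14 (log2 2.93 ± 0.57, adjusted p = 0.00150), with T.mu replicate 1 close to the controls of day 3, and the call was lost without control replicate 3 or T.mu replicate 2 (up to 0.142). Tnip3, an NF-kappaB inhibitor, was at 5.55, 5.38 and 2.86 CPM in the day 3 controls and 7.60, 4.94 and 4.76 CPM with T.mu. At day 14 Tnip3 was at 0, 0 and 11.5 CPM in controls and 35.6, 50.2 and 49.1 CPM with T.mu. It rose at day 14 (adjusted p = 0.0108) and also from day 3 to day 14 within the T.mu arm (log2 2.93 ± 0.54, adjusted p = 0.000671), where it held whichever library was left out, while its day 14 call ended without control replicate 1, control replicate 2 or T.mu replicate 2 (up to 0.0925). Without control replicate 3 the other controls of day 14 are at 0, so that the fitted value, 9.67, is no measure of size.

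Other members of that list were uneven within the T.mu group of day 14. Reg3b, a bactericidal lectin, was at 647, 834 and 1116 CPM in the day 3 controls and 867, 228 and 408 CPM with T.mu. At day 14 Reg3b was at 399.7, 1099 and 2427 CPM in controls and 404, 13743 and 4300.4 CPM with T.mu. T.mu replicate 1 lay among the controls and replicate 2 was the highest library, and neither the day 14 response (log2 2.21 ± 1.62, adjusted p = 0.769) nor the day difference (log2 3.00 ± 2.25, adjusted p = 0.891) passed. Saa1 followed the same order, at 154, 1320.4 and 763 CPM with T.mu at day 14 against 133, 176 and 212 CPM in the controls (log2 2.07 ± 0.80, adjusted p = 0.401). Duoxa2, which matures the epithelial oxidase Duox2, was at 171, 482 and 286 CPM with T.mu at day 14 and 17.4, 101 and 64.1 CPM in the controls. Its groups were apart but it did not pass (log2 2.40 ± 0.74, adjusted p = 0.223). Reg3b was named by rule; Saa1 and Duoxa2 were chosen after their values were seen.

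Nfkbia, Zc3h12a and Casp4 were also past the threshold at day 14 alone. Nfkbia, the inhibitor IkappaB-alpha, was chosen after its values were seen and was at 81.9, 121 and 111 CPM in the day 3 controls and 110.0, 117 and 122 CPM with T.mu. At day 14 Nfkbia was at 57.9, 109 and 115 CPM in controls and 257, 211 and 201 CPM with T.mu. It rose 2.33-fold at day 14 (log2 1.22 ± 0.25, adjusted p = 0.00278), where the arms were apart, and overlapped at day 3 (log2 0.15 ± 0.23, adjusted p = 0.999); the call was lost without control replicate 1 of day 14 (adjusted p = 0.0768). Zc3h12a, the ribonuclease regnase-1 that degrades inflammatory messenger RNAs, was at 5.22, 7.53 and 7.63 CPM in the day 3 controls and 6.26, 4.42 and 9.51 CPM with T.mu. At day 14 Zc3h12a was at 5.79, 0 and 1.64 CPM in controls and 14.0, 30.9 and 40.2 CPM with T.mu. It rose at day 14 (log2 3.58 ± 0.79, adjusted p = 0.00626) and not at day 3 (-0.10 ± 0.53), and the call ended without control replicate 3 of day 14 (0.135). Its day difference of 3.68 ± 0.97 was among the 10 above 0 with the smallest p (adjusted p = 0.359). Of the inflammasome list 23 genes were tested and none passed at day 3, where 0.462% of all genes rose. Casp4, the caspase that senses cytosolic lipopolysaccharide, was the 1 member past the threshold at day 14, where 0.821% of all genes rose. It was at 30.3, 32.0 and 45.1 CPM in the day 3 controls and 35.8, 46.8 and 46.8 CPM with T.mu. At day 14 Casp4 was at 43.4, 33.6 and 46.6 CPM in controls and 77.5, 115 and 116 CPM with T.mu. It rose 2.34-fold (log2 1.23 ± 0.28, adjusted p = 0.0110), a call lost without control replicate 1, control replicate 2 or T.mu replicate 2 of day 14 (up to 0.111). Casp1, Pycard and Il18 passed on neither day, and Il1b had too few counts to be tested.

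**Figure D3:**
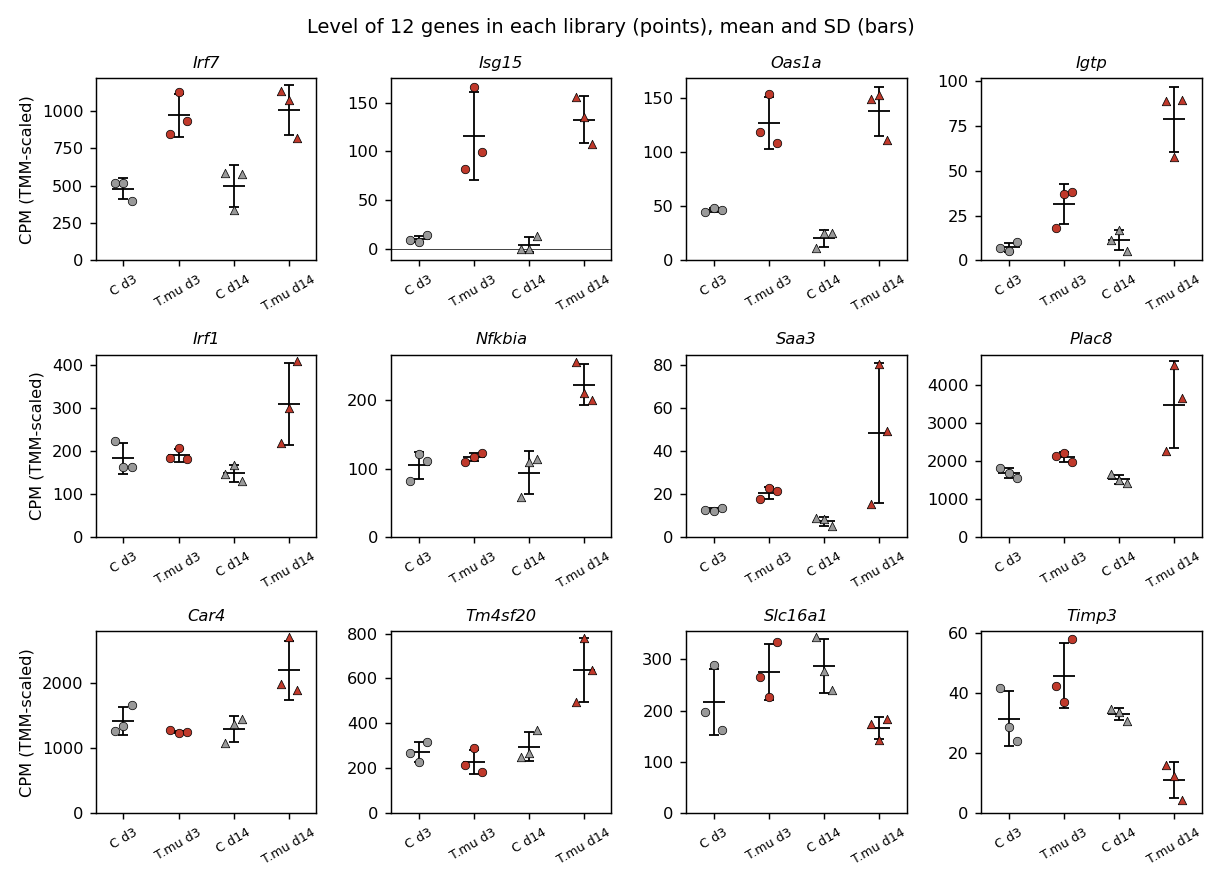
Level of 12 genes (CPM after TMM scaling, vertical axis) in each library of control (C) and T.mu tissue at day 3 and day 14, with the mean and SD of 3 libraries. Irf7, Isg15 and Oas1a were high with T.mu on both days, Igtp was highest with T.mu at day 14, and Irf1, Nfkbia, Saa3, Plac8, Car4 and Tm4sf20 were apart from their controls at day 14 with a call on that day alone; Slc16a1 was lower with T.mu at day 14, and Timp3 was lowest there without a call between arms.

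Hk2, Ldha and Ly6a were in the set of day 14 alone as well. Hk2, a hexokinase that commits glucose to glycolysis, was at 93.6, 44.6 and 66.5 CPM in the day 3 controls and 88.5, 102 and 88.8 CPM with T.mu. At day 14 Hk2 was at 81.1, 126 and 100.3 CPM in controls and 181, 274 and 259 CPM with T.mu. It rose 2.34-fold at day 14 (log2 1.23 ± 0.24, adjusted p = 0.00176) with arms apart, a call that held whichever library was left out, and did not pass at day 3 (log2 0.45 ± 0.22, adjusted p = 0.949). Ldha, a lactate dehydrogenase subunit, rose 1.51-fold at day 14 (log2 0.60 ± 0.16, adjusted p = 0.0475), a call lost with the litter block (0.0518) and in 8 of the 12 fits that left out 1 library (up to 0.395). Their day differences were 0.77 ± 0.33 and 0.72 ± 0.22. Ly6a, an interferon-inducible surface antigen, was at 50.6, 45.4 and 25.3 CPM in the day 3 controls and 116, 127 and 141 CPM with T.mu. At day 14 Ly6a was at 81.1, 16.8 and 62.5 CPM in controls and 266, 473 and 433 CPM with T.mu. It rose 6.76-fold at day 14 (log2 2.76 ± 0.44, adjusted p = 0.00278), held in the same way, and did not pass at day 3 (log2 1.66 ± 0.39, adjusted p = 0.0992). These 3 genes were chosen after their values were seen.

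The rule for naming genes also gave those with the smallest p for the day difference, none of which passed. Above 0 these were, besides Car4, Tm4sf20, Plac8, Zc3h12a, Slc39a4 and Irf1, the secretory vesicle GTPase Rab3d (1.51 ± 0.40), the adaptor Blnk (1.22 ± 0.34), the palmitoyltransferase Zdhhc13 (1.24 ± 0.35) and the transcription factor Cebpg (1.39 ± 0.40). The adjusted p of these 10 ran from 0.252 (Car4) to 0.508 (Irf1 and Cebpg). Cebpg passed without T.mu replicate 2 of day 3 (adjusted p = 0.0329). Below 0 they were Cyp4f15, St3gal5, Lars2, Dtx1, Slc16a1, Gm26772, Hp, Timp3, Plekha1 and Cmtm8. Of these Cyp4f15, Lars2, Hp and Cmtm8 passed without control replicate 3 of day 14 (adjusted p = 0.0417 each), and Cyp4f15 and Lars2 also without T.mu replicate 2 of day 3. Cyp4f15 passed with DESeq2 and with no filter on low counts as well. Lars2 (-0.89 ± 0.21) overlaps ribosomal RNA sequence, and ribosomal RNA together with Lars2 took 20.8% to 23.7%, 10.7% to 28.0%, 16.035% to 28.6% and 8.96% to 22.6% of counts in the 4 groups, in the order of the figures on mitochondrial transcripts. Its part in that gene's value was not tested.

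The 11 genes past the threshold at day 3 alone included Gbp3, Ccl8, Ogfr, Tnfsf10, Trim12a, Parp9, Gm5431, Gm12250, H2-Q6 and Gm15564. The interferon lists held 2 of the 11. A response element match was found for 4 of the 9 genes with a matched promoter (44.4%), against 3.99% of all genes. Gbp3, a guanylate-binding protein induced by interferon, was at 8.16, 4.30 and 7.16 CPM in the day 3 controls and 28.6, 32.2 and 24.6 CPM with T.mu. At day 14 Gbp3 was at 5.79, 8.39 and 4.38 CPM in controls and 19.3, 11.5 and 11.2 CPM with T.mu. It rose 4.38-fold at day 3 (log2 2.13 ± 0.42, adjusted p = 0.00152); at day 14 the arms were still apart (log2 1.49 ± 0.60, adjusted p = 0.345), and the day difference was -0.64 ± 0.75. Its call ended without control replicate 2 of day 3 (0.0665). Ccl8, a monocyte chemokine, was at 11.7, 15.6 and 6.2 CPM in the day 3 controls and 33.1, 29.6 and 42.8 CPM with T.mu. At day 14 Ccl8 was at 11.6, 16.8 and 15.3 CPM in controls and 35.1, 24.1 and 44.6 CPM with T.mu. It rose 3.11-fold (log2 1.64 ± 0.35, adjusted p = 0.00536), was also apart at day 14 (log2 1.16 ± 0.44, adjusted p = 0.306), and lost its call without control or T.mu replicate 3 of day 3 (up to 0.174). Ogfr, the opioid growth factor receptor, was at 12.4, 11.3 and 19.3 CPM in the day 3 controls and 25.9, 35.9 and 61.1 CPM with T.mu. At day 14 Ogfr was at 26.1, 16.8 and 26.3 CPM in controls and 28.3, 28.8 and 22.3 CPM with T.mu. It was 2.77-fold higher at day 3 (log2 1.47 ± 0.35, adjusted p = 0.0256) and overlapped at day 14 (log2 0.16 ± 0.42, adjusted p = 0.969), with a day difference of -1.31 ± 0.55 that did not pass (adjusted p = 0.748); the day 3 call ended without control replicate 1, control replicate 2 or T.mu replicate 2 or 3 (up to 0.703). These 3 genes were chosen after their values were seen. An unnamed gene of the set, ENSMUSG00000089855.1, was at 1.96, 1.61 and 2.86 CPM in the day 3 controls and 221, 669 and 1257 CPM with T.mu. At day 14 ENSMUSG00000089855.1 was at 23.2, 8.39 and 1.10 CPM in controls and 89.5, 535 and 511 CPM with T.mu. Its level followed the arms on both days (day 14 adjusted p = 0.0688) and moved with the non-mouse entry of the table, whose levels by library were 29.5, 20.6 and 19.7, then 6533, 29192 and 42755, then 512, 72.5 and 9.38, and 4053, 17136 and 20194 CPM of all counts; that entry's part in the gene's value was not tested.

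Genes lower with T.mu at day 14 numbered 17 (0.145% of those tested), with a median response of 0.00 at day 3 and -1.11 at day 14. This count was 1 without control replicate 1 of day 14, 10 without control replicate 2 and 6 without T.mu replicate 2. It was lower as well without the libraries under 400000 counts. Without T.mu replicate 1 it was again 17, of which 4 were among those of the main count. Xist, the transcript of the inactive X chromosome that marks female samples, was among the 17 of the main count (log2 -0.97 ± 0.23, adjusted p = 0.0141). Mean levels of Xist were 142 CPM in controls and 140 CPM with T.mu at day 3, then 241 and 125 CPM at day 14. Sex is not given, and the part of sex in these values was not tested. Slc16a1, the monocarboxylate transporter through which colonocytes take up butyrate, was at 198, 289.8 and 163 CPM in the day 3 controls and 266, 226 and 335 CPM with T.mu. At day 14 Slc16a1 was at 345, 277 and 240.1 CPM in controls and 175, 142 and 183 CPM with T.mu. The arms overlapped at day 3 and were apart at day 14, where Slc16a1 was 1.72-fold lower (log2 -0.78 ± 0.20, adjusted p = 0.0398). The day difference was -1.12 ± 0.28 (adjusted p = 0.312), and the day 14 call ended without control replicate 1, control replicate 2 or any T.mu library of that day (up to 0.398). Plekha1, a pleckstrin homology domain protein gene, was at 131, 104 and 121 CPM in the day 3 controls and 136, 140.4 and 97.5 CPM with T.mu. At day 14 Plekha1 was at 182, 96.5 and 129 CPM in controls and 66.7, 74.8 and 40.2 CPM with T.mu. It fell 2.16-fold at day 14 (log2 -1.11 ± 0.24, adjusted p = 0.00430), and its day difference of -1.19 ± 0.32 passed with DESeq2 (adjusted p = 0.0401) and not with edgeR (0.359). The day 14 call ended without control replicate 1 (0.122). Fryl was at 170.0, 123 and 123 CPM in the day 3 controls and 114, 126 and 91.2 CPM with T.mu. At day 14 Fryl was at 133, 143 and 117 CPM in controls and 60.2, 68.5 and 62.5 CPM with T.mu. It fell 2.02-fold (log2 -1.01 ± 0.24, adjusted p = 0.0116), with a call that ended without control replicate 1, control replicate 2 or T.mu replicate 1 (up to 0.0654), and its day 3 value was in the same direction without a call (-0.32 ± 0.21).

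Lower counted genes of this set were near 0 with T.mu at day 14. Cmtm8, a MARVEL domain membrane protein gene, was at 40.1, 46.8 and 22.9 CPM in the day 3 controls and 43.4, 29.6 and 38.1 CPM with T.mu. At day 14 Cmtm8 was at 40.6, 42.0 and 14.2 CPM in controls and 8.53, 1.05 and 4.46 CPM with T.mu. It fell at day 14 (log2 -2.27 ± 0.51, adjusted p = 0.00816) with arms that overlapped at day 3, and the call was lost without control replicate 1, control replicate 2 or T.mu replicate 2 (up to 0.142). St3gal5, the synthase of the ganglioside GM3, was at 10.4, 10.2 and 5.96 CPM in the day 3 controls and 17.0, 12.996 and 7.93 CPM with T.mu. At day 14 St3gal5 was at 17.4, 8.39 and 8.77 CPM in controls and 1.505, 0 and 0 CPM with T.mu. Its day 14 response passed (log2 -3.54 ± 0.81, adjusted p = 0.00864), and ended without control replicate 1 or T.mu replicate 2 (up to 0.124). Without T.mu replicate 1, the remaining T.mu libraries are at 0 and the fitted value, -7.56, is no measure of size. Cyp4f15, Gm26772 and Itga11 had summed counts of 18, 12 and 13 in the 2277442 counts of the day 14 controls and 0 in the 6032122 counts with T.mu. Against a floor of 3 counts over the T.mu group, and with the control counts taken as exact, they were at least 15.9-fold, 10.6-fold and 11.5-fold lower. The error of these small control counts is not in the bounds. Small counts in these libraries were mostly even; with all counts halved and the floor kept at 3 the bounds are 7.95-fold, 5.30-fold and 5.74-fold. At day 3 the summed counts of Cyp4f15, a cytochrome P450, were 57 in controls and 56 with T.mu, or means of 5.37 and 7.31 CPM. The litter block ended the calls of Gm26772 (adjusted p = 0.0501) and Itga11 (0.0635), and that of March6 (0.0538). Leaving out control replicate 1 or T.mu replicate 1 of day 14 ended the call of Cyp4f15 (up to 0.0606), and these or T.mu replicate 2 that of Itga11 (0.201). The call of Gm26772 ended without replicate 1 or 2 of either arm at day 14 (0.199), and that of March6 in 11 of the 12 fits (0.186). Cyp24a1, which inactivates vitamin D, was the 1 gene lower at day 3, with summed counts of 77 in controls and 2 with T.mu (means 6.83 and 0.173 CPM). At day 14 the summed counts of Cyp24a1 were 2 and 0 (means 1.93 and 0 CPM). Its call ended without control replicate 3 or T.mu replicate 1 or 3 of day 3 (0.141).

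Lists of cell types had no member past the threshold for the day difference, and their medians pointed in different directions. Fewer cells of a type and less RNA per cell cannot be told apart in total tissue. The stem and proliferating list (48 tested) had a median response of -0.07 at day 3 and 0.57 at day 14, none called. The list had 40 members with a day difference above 0, where 6441 of 11696 genes had one. Its summed level was 330 to 427 CPM in the day 3 controls, 338 to 391 with T.mu at day 3, 353 to 411 in the day 14 controls and 548 to 699 with T.mu at day 14, so the T.mu libraries of day 14 stood above all others. Within the T.mu arm 2 members rose from day 3 to day 14 (of all genes 0.787% rose), the cyclin Ccna2 (log2 2.29 ± 0.56, adjusted p = 0.0177) and the ubiquitin-conjugating enzyme Ube2c of mitotic exit (log2 2.02 ± 0.56, adjusted p = 0.0402). Ccna2 was at 4.57, 11.3 and 12.2 CPM in the day 3 controls and 4.02, 4.42 and 0.793 CPM with T.mu. At day 14 Ccna2 was at 8.69, 16.8 and 4.93 CPM in controls and 12.04, 18.3 and 24.5 CPM with T.mu. It had its lowest mean with T.mu at day 3 and its highest with T.mu at day 14, the arms being apart at day 3 (adjusted p = 0.611) and overlapping at day 14. Mki67, the usual proliferation marker, was at 11.7, 22.04 and 13.8 CPM in the day 3 controls and 9.39, 15.1 and 12.7 CPM with T.mu. At day 14 Mki67 was at 34.8, 21.0 and 13.2 CPM in controls and 18.8, 25.6 and 31.2 CPM with T.mu. Its groups overlapped on both days (day difference 0.59 ± 0.61). Leaving out single libraries ended each of the 2 time calls in 4 of 12 fits (adjusted p up to 0.113 and 0.265).

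Cholesterol and lipid synthesis genes (33 tested) had a median response of -0.19 at day 3 and 0.46 at day 14. Of these 29 had a day difference above 0, where 6441 of 11696 genes had one. Cyp51, a lanosterol demethylase, was the 1 member called at day 14 (log2 0.96 ± 0.25, adjusted p = 0.0432), where 0.821% of all genes rose. Its level was 114, 104 and 93.3 CPM in the day 3 controls and 105, 127 and 95.1 CPM with T.mu. At day 14 Cyp51 was at 46.3, 67.1 and 95.4 CPM in controls and 102, 173 and 165 CPM with T.mu. The T.mu libraries of day 14 overlapped no control of that day and reached into the range of the day 3 controls, and the call ended with the litter block (0.0518) and without control replicate 1, control replicate 2 or T.mu replicate 2 or 3 (up to 0.376). The summed level of the list was 2372 to 2740 CPM in the day 3 controls, 2229 to 2514 with T.mu at day 3, 1678 to 2001 in the day 14 controls and 2067 to 2963 with T.mu at day 14. The day 14 controls were the lowest group. Of the nuclear-encoded respiration genes 70 of 75 had a day difference above 0, where 6441 of 11696 genes had one. The median was 0.33 against 0.08 over all genes, and none was called on either day. Their median change from day 3 to day 14 was -0.28 in controls and 0.03 with T.mu. The summed level was 24727 to 27442 CPM in the day 3 controls and 23987 to 25862 with T.mu at day 3. At day 14 it was 20053.5 to 22486 CPM in controls, again the lowest group, and 23865.5 to 26840 with T.mu. Goblet cell genes (30 tested, median day difference 0.51), tuft cell genes (15, -0.03) and smooth muscle genes (26, -0.02) had no call on either day.

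Connective tissue and myeloid lists had medians in the other direction. Fibroblast and matrix genes (42 tested) were all above 0 at day 3 (median 0.52, none called) and had a median of -0.05 at day 14 (none called). The list had 9 members with a day difference above 0 (list median -0.58), where 6441 of 11696 genes had one. The summed level was 2251 to 4040 CPM in the day 3 controls, 4295 to 5319 with T.mu at day 3, 2660 to 3253 in the day 14 controls and 2223 to 2876 with T.mu at day 14, so T.mu at day 3 was the highest group and overlapped no other. Within the T.mu arm 13 of 42 members fell from day 3 to day 14, against 0.992% of all genes, and none passed in the controls (median -0.21). Timp3, a matrix-bound inhibitor of metalloproteinases, was at 41.8, 28.8 and 24.1 CPM in the day 3 controls and 42.5, 37.2 and 57.9 CPM with T.mu. At day 14 Timp3 was at 34.8, 33.6 and 30.7 CPM in controls and 16.1, 12.6 and 4.46 CPM with T.mu. It fell 3.45-fold in the T.mu arm (log2 -1.79 ± 0.34, adjusted p = 0.000845) and kept the call whichever library was left out; its day difference of -1.83 ± 0.48 did not pass (adjusted p = 0.359), nor did the lower level with T.mu at day 14 (log2 -1.31 ± 0.39, adjusted p = 0.0945). The fibrillar collagen genes Col1a2 and Col3a1, chosen after their values were seen, fell 2.48-fold and 2.27-fold in the T.mu arm and kept that call likewise, with day differences of -1.07 ± 0.35 and -0.84 ± 0.32.

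Endothelial (21 tested), complement (17), and macrophage and dendritic cell genes (25) had median day differences of -0.80, -0.78 and -0.64 and no call for T.mu against control on either day. C3, the central complement component, was at 54.8, 58.6 and 36.3 CPM in the day 3 controls and 189.6, 66.0 and 201 CPM with T.mu. At day 14 C3 was at 69.5, 50.4 and 113 CPM in controls and 57.2, 43.4 and 80.3 CPM with T.mu. T.mu replicates 1 and 3 of day 3 were the highest libraries, and the day difference was -2.16 ± 0.55 (edgeR adjusted p = 0.508). C3 passed with DESeq2 (adjusted p = 0.0401), with no filter on low counts (0.000312) and without T.mu replicate 2 of day 3 (0.000159). Adipocyte genes (19 tested, median day difference -0.80) varied widely within the day 14 groups. Cfd, adipsin, was at 6.2, 2.15 and 0 CPM in the day 3 controls and 52.8, 36.9 and 49.2 CPM with T.mu. At day 14 Cfd was at 145, 8.39 and 96.5 CPM in controls and 49.7, 49.2 and 199 CPM with T.mu. All day 3 controls were below all T.mu libraries of day 3, while the day 14 groups overlapped over a wide range, and neither the day 3 response (log2 4.14 ± 1.06, adjusted p = 0.196) nor the day difference (log2 -4.17 ± 1.39, adjusted p = 0.666) passed. Adipoq, the fat hormone adiponectin, was at 0.653, 0 and 0 CPM in the day 3 controls and 3.58, 10.9 and 8.72 CPM with T.mu. At day 14 Adipoq was at 29.0, 0 and 13.2 CPM in controls and 9.78, 9.42 and 17.9 CPM with T.mu. Its arms, too, were apart at day 3 and overlapped at day 14. The summed level of the adipocyte list was 908 to 1085 CPM in the day 3 controls, 1035 to 1213 with T.mu at day 3, 705 to 1257 in the day 14 controls and 833 to 1234 with T.mu at day 14, and its part in the value of C3 was not tested.

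**Figure D4:**
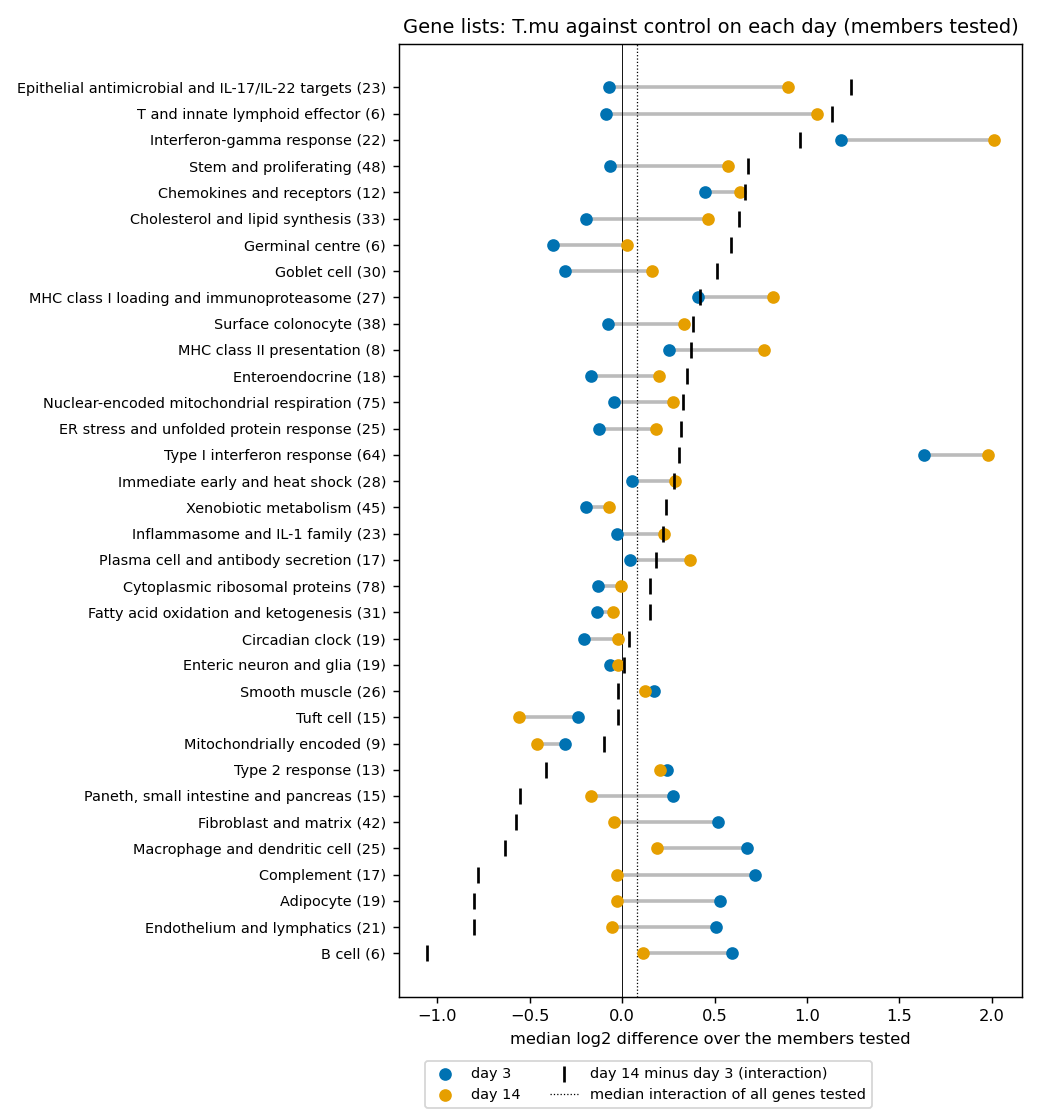
Median log2 response to T.mu at day 3 and day 14 and median day difference (horizontal axis) for the gene lists, with the number of members tested in brackets. The type I interferon list lies at 1.63 and 1.98 on the 2 days, the antimicrobial list at -0.07 and 0.90, and the fibroblast list at 0.52 and -0.05; the dotted line is the median day difference of all genes, 0.08.

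The change between days was also examined in each arm, since the day difference contains both. From day 3 to day 14, 63 genes changed in controls (0.539%; 17 higher and 46 lower) and 208 with T.mu (1.78%; 92 higher and 116 lower). The control split was 19 of 45 higher with RLE scaling and 73 of 140 with DESeq2, and the control count was 33, 29 and 31 without control replicates 1, 2 and 3 of day 3 and 31, 23 and 209 without control replicates 1, 2 and 3 of day 14. The T.mu count was 71 and 77 without T.mu replicates 1 and 3 of day 3 and 77 and 126 without T.mu replicates 2 and 3 of day 14. Genes of the circadian clock were among them in both arms. Of 19 tested, 2 rose and 6 fell in controls and 3 rose and 9 fell with T.mu, where 0.145%, 0.393%, 0.787% and 0.992% of all genes did so, and no member passed for the day difference.

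Nr1d1, a repressor of the clock, was at 158, 183 and 196 CPM in the day 3 controls and 183, 172 and 163 CPM with T.mu. At day 14 Nr1d1 was at 26.1, 16.8 and 12.6 CPM in controls and 8.78, 8.37 and 0 CPM with T.mu. Every day 14 library lay far below every day 3 library, a fall of 11.02-fold in controls (log2 -3.46 ± 0.41, adjusted p = 5.28e-06) and 22.6-fold with T.mu (log2 -4.50 ± 0.39, adjusted p = 4.03e-09), and the day difference of the response did not pass (log2 -1.04 ± 0.58, adjusted p = 0.826). Arntl, the activator that Nr1d1 represses, was at 3.92, 15.1 and 3.34 CPM in the day 3 controls and 6.26, 11.4 and 10.3 CPM with T.mu. At day 14 Arntl was at 72.4, 54.5 and 59.2 CPM in controls and 74.5, 88.9 and 67.0 CPM with T.mu. It rose 8.23-fold and 8.20-fold between the days in the 2 arms, and its day difference was -0.01 ± 0.37 with an interval of -0.74 to 0.73. Tef, an output factor of the clock, fell in both arms as well (log2 -3.36 ± 0.57 and -3.17 ± 0.46); these calls of Nr1d1, Arntl and Tef held whichever library was left out. Dbp, another output factor, had summed counts of 136 and 69 at day 3 in controls and T.mu and of 1 and 7 at day 14. These 4 groups held 11596835, 7381574, 2277442 and 6032122 mouse counts in that order, so the sums are not scaled for depth. Arntl, Tef and Dbp were chosen after their values were seen. Clock genes thus differed between the days in both arms, and their part in the change of other genes between days was not tested.

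**Figure D5:**
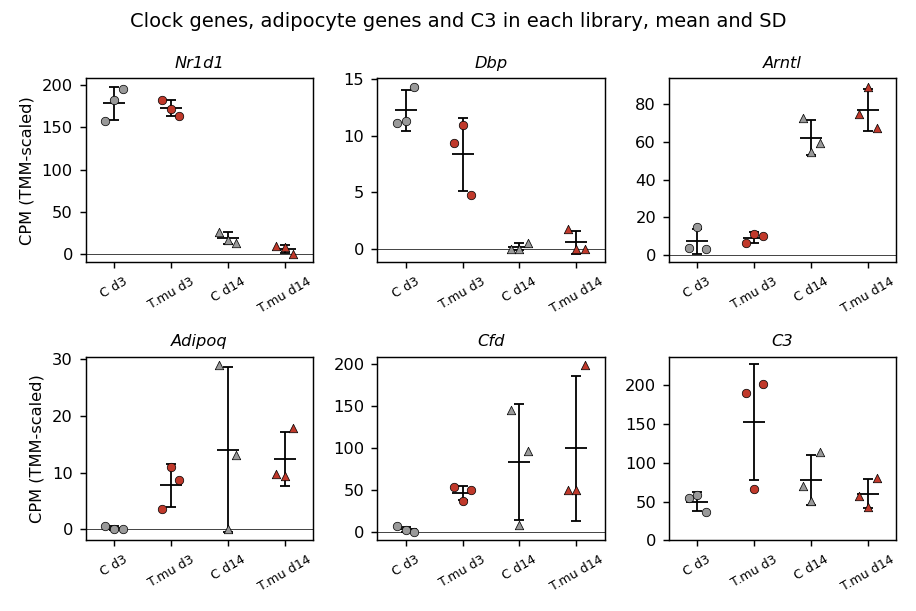
Levels (CPM after TMM scaling, vertical axis) of the clock genes Nr1d1, Dbp and Arntl, the fat genes Adipoq and Cfd, and C3 in each library of the 4 groups, with mean and SD of 3 libraries. The clock genes separate the days in both arms, Adipoq and Cfd are close to 0 in all 3 day 3 controls, and C3 is highest in 2 of 3 T.mu libraries of day 3.

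For lymphocytes the counts were too low to say more. Ifng, Il17a, Cd3e and Cd79a were not tested. Of the T cell list 3 of 27 genes were tested and none passed; the summed level of the list was 25.8 to 33.6 CPM in the day 3 controls, 25.2 to 46.1 with T.mu at day 3, 8.39 to 26.1 in the day 14 controls and 40.2 to 47.4 with T.mu at day 14, with no overlap between the arms at day 14. Its part in the genes described above was not tested. Plasma cell genes (17 tested) had a median day difference of 0.18 and no call. Igha, the heavy chain of IgA, did not pass on either day (log2 -0.38 ± 0.23 at day 3 and 0.53 ± 0.24 at day 14).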

How the data were processed

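The table holds read counts per gene of 3′ digital gene expression libraries, deposited by the authors as raw counts; alignment and counting used STAR and Subread per the submitters' processing notes, and versions, genome build, annotation, strand and molecular identifiers are not given in the sources used here. Small counts (up to 20) were even in 67.5% to 85.8% of cases, so a fit with counts halved was tried. Gene symbols came from a GENCODE M21 reference (45143 of 45792 identifiers, 98.6%). The 1 entry that is not a mouse gene (0.884% of the counts of the 12 libraries) was kept out of library sizes and tests. edgeR 4.0.16 (R 4.3.3) fitted all 20 tissue libraries as 6 groups, using the quasi-likelihood test after TMM scaling. Genes were kept by filterByExpr at a minimum count of 10 and a minimum total of 15. Errors after log2 values are approximate standard errors. Each is the size of the log2 value divided by the square root of its quasi-likelihood F statistic. The intervals given are built on these errors and are approximate too. Such an error can fail as a standard error. For Cyp24a1 it was 0.328 for the day difference, below the 1.02 of day 3 and the 2.15 of day 14. Adjusted p-values are Benjamini-Hochberg over 11696 genes, and the threshold was 0.05. DESeq2 1.42.0, limma 3.58.1 and other settings were alternatives, and the code was tested on simulated data. Litter labels pair the arms; deviations of same-litter, same-day libraries correlated at -0.103 to 0.0339, and litter as a block was an alternative. Replicates differed beyond counting noise (chi-square per degree of freedom 2.54 to 37.4). Floors cover counting error on the T.mu side only.

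Named genes were the 10 genes a direction with the smallest p for the day difference (none passed), the 2 smallest-p members of each of 39 gene lists, up to 10 a direction called on each day, and a set list of markers; other genes are said to be chosen after their values were seen. The comparison and lists were chosen with earlier results of these data known.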

Additional observations from a re-analysis of the deposited data

Results flagged for a closer look

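The count table also holds 1 entry that is not a mouse gene, which no comparison above tests. Its level was 23.3 ± 5.42 CPM of all counts (SD, n = 3) in the day 3 controls, 26160 ± 18300 CPM with T.mu at day 3, 198 ± 274 CPM in the day 14 controls and 13794 ± 8573 CPM with T.mu at day 14. It is listed here because it stood above the control level on both days in data outside the gene comparison. The exact two-sided permutation test gave p = 0.1 on each day, the lowest that 3 against 3 libraries can give (20 splits), and p = 0.4 between the T.mu libraries of the 2 days, where values overlapped. The control library of litter 1 at day 14 had the highest control value, 512 CPM.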

How the results depend on the processing

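The day difference gave 0 genes with limma voom, RLE scaling, the 12 libraries alone, litter as a replicate block, counts halved, thinning and without the libraries under 400000 counts, 5 with DESeq2 and 3 with no filter on low counts (Tm4sf20, Cyp4f15 and C3), and 0 to 16 when 1 library was left out. Day 3 gave 87 genes with DESeq2, 85 with counts halved and 29 when all libraries were thinned to 220717 counts, and 41 to 59 with 1 library left out. Day 14 gave 185 with DESeq2, 66 with limma voom, 64 thinned and 27 without the libraries under 400000 counts, and 56 to 196 with 1 library left out. The change between days in controls gave 140 with DESeq2, 29 with limma voom, 108 with no filter, 117 with the 12 libraries alone, 31 thinned and 11 without the libraries under 400000 counts, and 23 to 209 with 1 library left out. That with T.mu gave 371 with DESeq2, 364 with counts halved, 51 thinned and 359 without the libraries under 400000 counts, and 71 to 228 with 1 library left out. The cause of these moves was not tested. With litter as a replicate block the day difference, day 3, day 14, controls and T.mu gave 0, 51, 97, 59 and 188 genes; besides the calls named above, it ended those of genes not described here. Calls held in every fit that left out 1 library for 33 of 55 genes at day 3 and 41 of 113 at day 14. For the change between days they held for 14 of 63 genes in controls and 42 of 208 with T.mu. No named gene reversed its direction among called genes in any alternative. The 2 shallow day 14 controls limit every comparison that uses the controls of that day.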
